A study of Arabidopsis thaliana with 6 samples.

Results

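The genes described here drive the plant cell cycle and copy its DNA: 40 listed loci of Arabidopsis thaliana, of which 35 had a probe set among the 21430 on the array. The list was made by function, but with earlier results of these data known, so counts over it are descriptive. It holds 12 genes of S phase and DNA replication (PCNA1, PCNA2, MCM2 to MCM7, CDT1A and the ribonucleotide reductase genes RNR1, RNR2A and TSO2), 14 genes of G2 and mitosis (B-type cyclin-dependent kinases, cyclin CYCA2;1, B-type cyclins and KNOLLE), and 14 regulators of G1 and of entry into S phase (CDKA;1, CYCA3;1, D-type cyclins, KRP1, KRP2, the E2F factors and RBR1). MCM6, CDKB1;1, CDKB1;2, CYCB1;2 and CYCB2;3 were not analysed here. Probe sets are named by locus. Values are log2 expression values, and a difference is the low CO2 mean minus the ambient CO2 mean on that scale.

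Leaves came from plants grown in soil under short days for 6 weeks at 400 ppm CO2. In the low CO2 group, plants were then held for 24 h at 100 ppm, and in the ambient CO2 group they stayed at 400 ppm. Each group had 3 arrays, and each array measured leaf RNA pooled over 4 to 5 plants. The labels name no genotype or accession and do not say whether pools came from separate growth runs, so the p-values measure the spread between these pools.

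In dividing plant cells, D-type cyclins with CDKA;1 phosphorylate RBR1, the retinoblastoma protein, which then releases E2F factors that switch on replication genes. Kinases of the CDKB class and B-type cyclins take over at G2 and mitosis, and the syntaxin KNOLLE builds the cell plate that separates the daughter cells. KRP proteins inhibit the kinases. In a grown rosette most leaf cells have left the mitotic cycle, and division continues mainly in young leaves and in the stomatal lineage.

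Low CO2 replicate 1 stood apart. Over the 16210 probe sets tested, which are not independent, its correlation with the ambient CO2 arrays (r = 0.980 to 0.986) was above that with its own group's replicates 2 and 3 (0.962 and 0.947). Yet all 3 low CO2 arrays, this one included, lay below all ambient CO2 arrays for 14.3% of these probe sets and above them for 14.6%. Its label was kept as given, and whether the label is right was not tested. Each all-array mean and count depends on that array. Results are therefore given with that array and, where it matters, without it. For the leaf label, the photosynthesis and photorespiration genes CA1, CAT2 and GLDP1 lay between log2 12.64 and 13.68, near the top of the range, and RBCS1A and LHCB1.3 were not analysed here. Testing required a value of log2 4 or more on 3 arrays, which 34 members met, 33 of them on all 6 arrays. CYCD4;1 fell short of log2 4 on 1 array. CYCA2;1, a cyclin of S phase to mitosis, lay under log2 4 on all arrays, at 3.64, 3.57 and 3.56 in low CO2 and 3.38, 3.34 and 3.54 in ambient CO2, and was not tested.

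Replication genes and mitotic genes were mostly lower in low CO2, and the regulators differed in both directions. Means were lower in low CO2 for 10 of 11 S-phase genes, 9 of 9 G2 and mitotic genes and 9 of 14 regulators, against 53.8% of all probe sets tested. In bulk leaf RNA, fewer dividing cells and less RNA per cell cannot be told apart. Median differences were -0.62, -0.39 and -0.13 for the 3 groups, against -0.03 over all probe sets tested. By limma with Benjamini-Hochberg adjustment over all 16210 probe sets, 0 members passed an adjusted p of 0.05 in either direction, as did 0% of all probe sets. At an unadjusted p under 0.05, 13 of 34 members were lower and 2 higher, against 12.6% and 13.5% of all probe sets. All 3 low CO2 values lay below all 3 ambient CO2 values for 12 of 34 members and above them for 3, against 14.3% and 14.6% of all probe sets. Without low CO2 replicate 1, limma called 11 of 34 members lower and 1 higher, against 18.5% and 16.8% of all probe sets. That array was left out because it stood apart, so those p-values are likely too small. With all 6 arrays weighted by how well each matched its group, limma called 21 of 34 members lower and 3 higher, against 26.9% and 24.1%. The weights were estimated from these same values, so these p-values are likely too small as well. Without low CO2 replicate 1, 19 of 34 members lay below all ambient CO2 arrays and 5 above, against 35.1% and 28.5% of all probe sets.

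**Figure D1:**
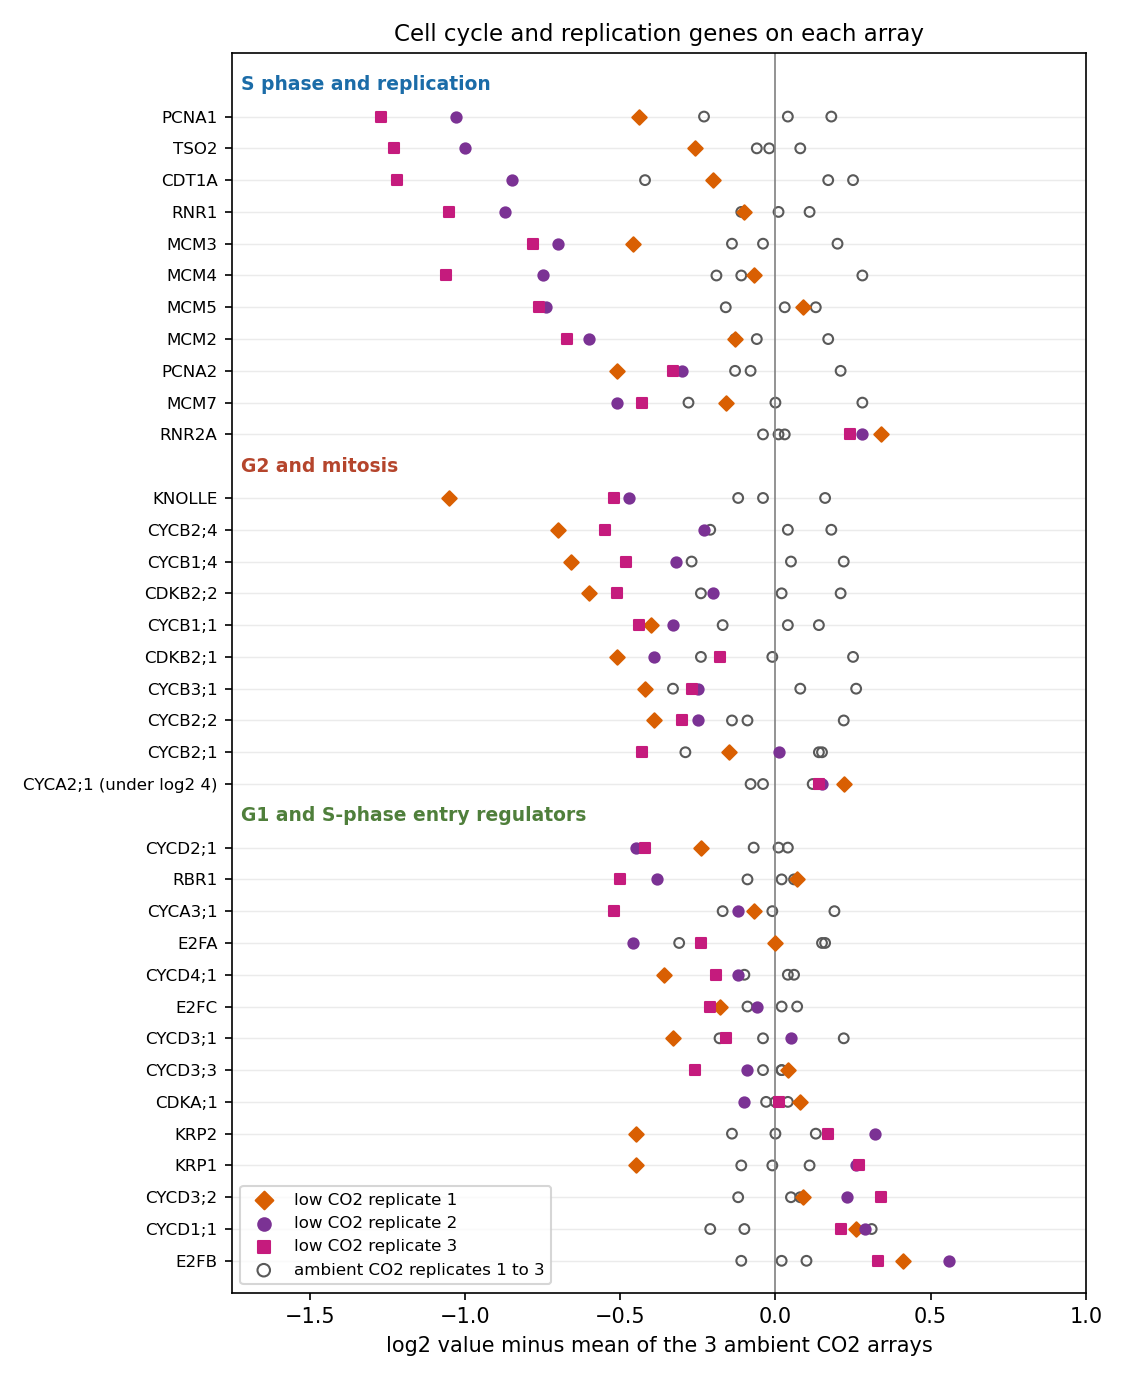
Log2 value of each of the 35 measured members on each array, minus the mean of the 3 ambient CO2 arrays; filled symbols are low CO2 replicates and open circles ambient CO2 replicates. In the S-phase group low CO2 replicate 1 lies nearest the ambient arrays for most genes, and in the mitotic group it is often the lowest array.

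Among the 11 S-phase members, PCNA1 had the largest difference with all arrays. It encodes the sliding clamp that holds DNA polymerase on its template. PCNA1 (AT1G07370_at) read 7.84, 7.25 and 7.01 in low CO2 replicates 1, 2 and 3, against 8.05, 8.32 and 8.46 in ambient CO2. The groups did not overlap, and low CO2 replicate 1 was the closest to the ambient range. The difference was -0.91 (SE 0.23, limma adjusted p = 0.124), a 1.88-fold lower level, from means of 7.36 ± 0.43 in low CO2 and 8.28 ± 0.20 in ambient CO2 (SD, n = 3 each). With low CO2 replicate 1 left out, PCNA1 fell by 1.15 (limma adjusted p = 0.00279). PCNA2 (AT2G29570_at), the second clamp gene, read 7.77, 7.98 and 7.95 in low CO2, against 8.15, 8.20 and 8.49 in ambient CO2. Its groups also stood apart, but here low CO2 replicate 1 was the lowest array. The PCNA2 difference was -0.38 (SE 0.14, limma adjusted p = 0.154), and its value was -0.31 once low CO2 replicate 1 was left out. The change of PCNA1 relative to PCNA2 was 0.08 on low CO2 replicate 1 and -0.73 and -0.94 on replicates 2 and 3, against -0.09, 0.12 and -0.03 on the ambient CO2 arrays. Replicates 2 and 3 thus lay apart from the ambient arrays and replicate 1 among them. No source used here states whether the probes separate such close copies.

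MCM2 to MCM7 form the ring helicase that unwinds DNA at replication origins, and all 5 measured subunits had lower means in low CO2, by 0.37 to 0.65. MCM3 (AT5G46280_at) read 6.17, 5.93 and 5.85 in low CO2, against 6.49, 6.59 and 6.83 in ambient CO2, a difference of -0.65 (SE 0.14, limma adjusted p = 0.118). Its arrays did not overlap, and it was the only subunit for which low CO2 replicate 1 also lay clearly under the ambient range. MCM2 (AT1G44900_at) read 6.11, 5.64 and 5.57 in low CO2, against 6.11, 6.18 and 6.41 in ambient CO2. Low CO2 replicate 1 and ambient CO2 replicate 1 were nearly equal there. MCM4 (AT2G16440_at) read 6.41, 5.73 and 5.42 in low CO2, against 6.29, 6.37 and 6.76 in ambient CO2. MCM5 (AT2G07690_at) read 6.32, 5.49 and 5.47 in low CO2, against 6.07, 6.26 and 6.36 in ambient CO2. For MCM4 and MCM5 low CO2 replicate 1 lay within the ambient range while replicates 2 and 3 lay below it. MCM7 (AT4G02060_at) read 7.18, 6.83 and 6.91 in low CO2, against 7.06, 7.34 and 7.62 in ambient CO2 (difference -0.37, SE 0.18), with the same overlap through replicate 1. For all 5 subunits low CO2 replicate 1 was the highest of the 3 low CO2 arrays. Without that array MCM2, MCM3, MCM4 and MCM5 fell by 0.63, 0.74, 0.90 and 0.75 (limma adjusted p = 0.0103, 0.00706, 0.00932 and 0.0053), and MCM7 differed by -0.47 (limma adjusted p = 0.070).

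CDT1A (AT2G31270_at), which loads the MCM ring onto origins, read 5.66, 5.01 and 4.64 in low CO2, against 5.44, 6.11 and 6.03 in ambient CO2. Its groups overlapped through both first replicates. CDT1A differed by -0.75 (SE 0.29, limma adjusted p = 0.172). With low CO2 replicate 1 left out it fell by 1.03 (limma adjusted p = 0.0131).

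Ribonucleotide reductase makes the deoxynucleotides for DNA, and its subunit genes differed in opposite directions. RNR1 (AT2G21790_at), the large subunit, read 8.38, 7.61 and 7.43 in low CO2, against 8.37, 8.49 and 8.59 in ambient CO2. For RNR1, low CO2 replicate 1 lay at the ambient level, and replicates 2 and 3 were lower. TSO2 (AT3G27060_at), a small subunit, read 8.98, 8.24 and 8.01 in low CO2, against 9.18, 9.22 and 9.32 in ambient CO2. All 3 low CO2 arrays were under the ambient range, replicate 1 by the least. RNR2A (AT3G23580_at), another small subunit, read 9.94, 9.88 and 9.84 in low CO2, against 9.63, 9.56 and 9.61 in ambient CO2. It was higher on all 3 low CO2 arrays, with replicate 1 the highest, and it was the only S-phase gene with a higher mean in low CO2. Differences were -0.68 (SE 0.25) for RNR1, -0.83 (SE 0.25) for TSO2 and 0.29 (SE 0.10) for RNR2A, with limma adjusted p of 0.157, 0.136 and 0.149. Without low CO2 replicate 1, RNR1 and TSO2 fell by 0.96 and 1.12 (limma adjusted p = 0.00242 and 0.00161), while RNR2A differed by 0.26 (limma adjusted p = 0.0906). TSO2 relative to RNR2A stood at -0.60, -1.29 and -1.47 on the low CO2 arrays, against -0.09, 0.02 and 0.07 on the ambient CO2 arrays, each relative to the ambient mean. These groups could not overlap, because TSO2 lay below and RNR2A above all ambient arrays, so their separation is no further result. For 3 arrays against 3, the exact permutation test has 0.1 as its smallest 2-sided p.

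**Figure D2:**
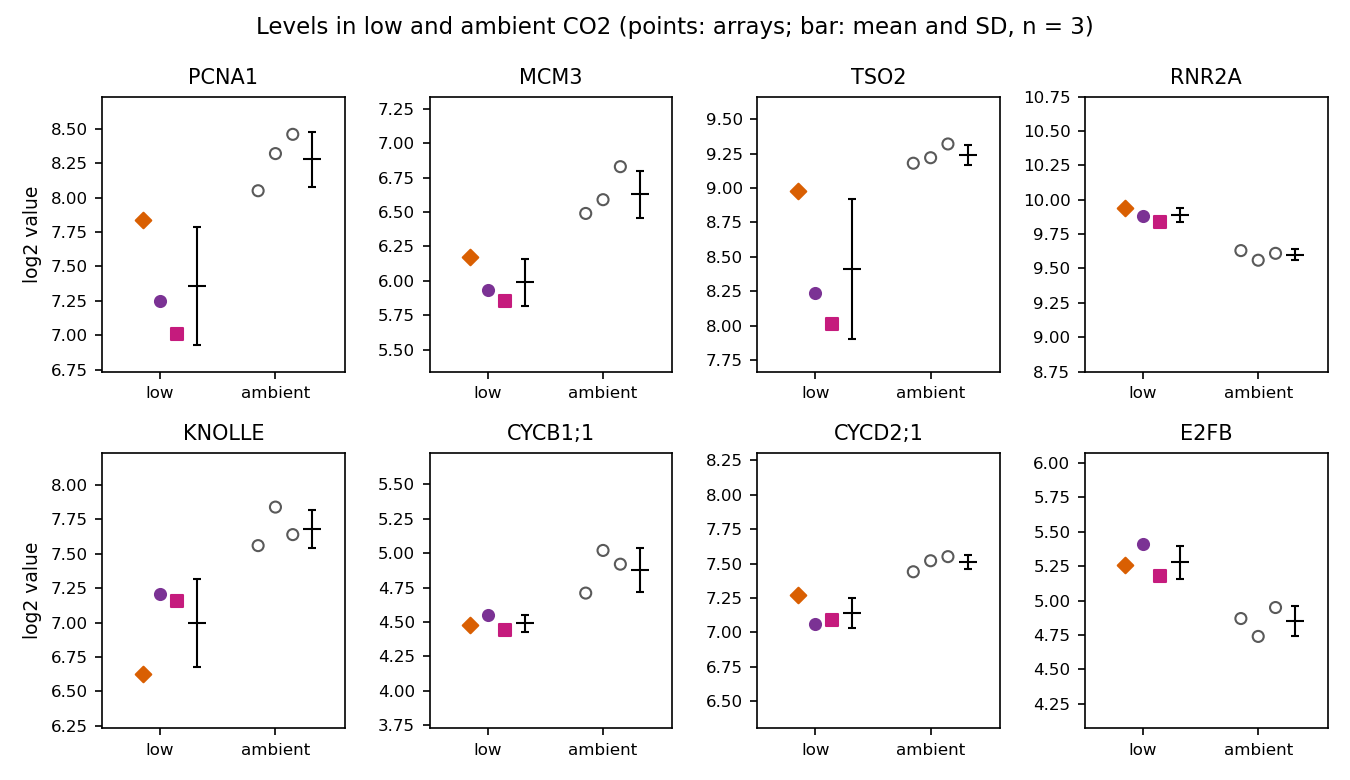
Log2 values of 8 members on each array, with low CO2 (filled) left of ambient CO2 (open) and the mean and SD (n = 3) beside each group; the vertical axis spans the same log2 range in every panel. PCNA1 and TSO2 spread widely over the low CO2 arrays, whereas RNR2A and E2FB lie above the ambient arrays on all 3.

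Of the 9 tested mitotic members, KNOLLE (AT1G08560_at) differed most with all arrays. The cytokinesis syntaxin gene read 6.63, 7.21 and 7.16 in low CO2, against 7.56, 7.84 and 7.64 in ambient CO2. All low CO2 arrays lay below the ambient range, and replicate 1 was by far the lowest, the reverse of its place among replication genes. KNOLLE differed by -0.68 (SE 0.18, limma adjusted p = 0.130). With low CO2 replicate 1 left out it fell by 0.50 (limma adjusted p = 0.0206). KNOLLE was the only one of the 9 mitotic members called in that fit, 1 lower and 0 higher, which is no more than the 18.5% of all probe sets called lower there.

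The 6 measured B-type cyclins, which activate kinases for mitosis, all had lower means in low CO2, by 0.19 to 0.50. CYCB1;1 (AT4G37490_at), a common marker of cells in G2 and mitosis, read 4.48, 4.55 and 4.44 in low CO2, against 4.71, 5.02 and 4.92 in ambient CO2. The 3 low CO2 arrays were close together and below the ambient range. CYCB1;4 (AT2G26760_at) read 4.37, 4.71 and 4.55 in low CO2, against 4.76, 5.25 and 5.08 in ambient CO2. CYCB2;4 (AT1G76310_at) read 4.02, 4.49 and 4.17 in low CO2, against 4.51, 4.90 and 4.76 in ambient CO2. CYCB2;2 (AT4G35620_at) read 4.28, 4.42 and 4.37 in low CO2, against 4.53, 4.58 and 4.89 in ambient CO2. In these 3 genes too the groups did not overlap, and low CO2 replicate 1 was the lowest array. Differences were -0.39 for CYCB1;1 (SE 0.12), -0.49 for CYCB1;4 (SE 0.16), -0.50 for CYCB2;4 (SE 0.17) and -0.31 for CYCB2;2 (SE 0.13), with limma adjusted p of 0.136, 0.146, 0.145 and 0.195. CYCB2;1 (-0.19) and CYCB3;1 (-0.32) overlapped between the groups. The B-type kinase gene CDKB2;2 (AT1G20930_at) read 5.46, 5.86 and 5.55 in low CO2, against 5.82, 6.08 and 6.27 in ambient CO2, with overlap through low CO2 replicate 2. It differed by -0.44 (SE 0.17, limma adjusted p = 0.166), and CDKB2;1 by -0.36 (SE 0.16, limma adjusted p = 0.211). Without low CO2 replicate 1, 0 of the B-type cyclins and CDKB2 genes were called by limma, against 18.5% of all probe sets called lower and 16.8% higher. The fit with array weights called CYCB1;1, CYCB1;4, CYCB2;2, CYCB2;4 and CDKB2;2 lower (limma adjusted p = 0.00787 to 0.0458), as it did 26.9% of all probe sets. The weights were estimated from these same values, so those p-values are likely too small. The mitotic genes lay low in the arrays' range, with a median ambient mean of log2 4.90, against 7.34 for the S-phase genes. GCRMA draws weak probe sets toward a common floor, and its part in the size of these differences was not tested.

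Regulators of G1 and S-phase entry differed less. CDKA;1 (AT3G48750_at), the main cell cycle kinase, read 8.92, 8.74 and 8.85 in low CO2, against 8.88, 8.81 and 8.84 in ambient CO2. The groups overlapped, and the difference was -0.01 (SE 0.11), with a sign that turned when low CO2 replicate 2 or ambient CO2 replicate 1 was left out. Among D-type cyclins, which link growth signals to division, CYCD2;1 (AT2G22490_at) read 7.27, 7.06 and 7.09 in low CO2, against 7.44, 7.52 and 7.55 in ambient CO2. Its groups did not overlap. CYCD2;1 differed by -0.37 (SE 0.11, limma adjusted p = 0.136), and fell by 0.43 once low CO2 replicate 1 was left out (limma adjusted p = 0.019). CYCD3;2 (AT5G67260_at) read 9.58, 9.72 and 9.83 in low CO2, against 9.37, 9.54 and 9.57 in ambient CO2, and was slightly above the ambient range on every low CO2 array (difference 0.22, SE 0.12, limma adjusted p = 0.285). CYCD4;1 (AT5G65420_at) read 3.92, 4.16 and 4.09 in low CO2, against 4.18, 4.32 and 4.34 in ambient CO2, close to the floor. CYCD2;1 relative to CYCD3;2 stood at -0.33, -0.67 and -0.75 on the low CO2 arrays, against 0.06, -0.03 and -0.03 on the ambient CO2 arrays. That separation follows from CYCD2;1 lying below and CYCD3;2 above all ambient arrays, and is no further result. CYCD1;1, CYCD3;1 and CYCD3;3 overlapped, with differences of 0.25, -0.15 and -0.10.

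RBR1 (AT3G12280_at), which holds E2F factors inactive, read 7.72, 7.27 and 7.15 in low CO2, against 7.56, 7.71 and 7.67 in ambient CO2. For RBR1, low CO2 replicate 1 was above the ambient range and replicates 2 and 3 below it. RBR1 differed by -0.27 (SE 0.17, limma adjusted p = 0.327) and fell by 0.44 (limma adjusted p = 0.022) with low CO2 replicate 1 left out. The activator gene E2FB (AT5G22220_at) read 5.26, 5.41 and 5.18 in low CO2, against 4.87, 4.74 and 4.95 in ambient CO2. It was higher on every low CO2 array, by 0.43 on average (SE 0.12, limma adjusted p = 0.132). E2FB was the 1 member called higher without low CO2 replicate 1 (0.44, limma adjusted p = 0.0336). E2FA, the other activator, and E2FC, a repressor, differed by -0.23 (SE 0.18) and -0.15 (SE 0.11), with overlap. E2FA relative to E2FB stood at -0.40, -1.03 and -0.57 on the low CO2 arrays, against -0.33, 0.28 and 0.05 on the ambient CO2 arrays, so the arrays were only just separate. The kinase inhibitor genes KRP1 and KRP2 had mean differences of 0.03 and 0.02 (SE 0.21 each), but the low CO2 arrays lay on both sides of the ambient range. KRP1 (AT2G23430_at) read 6.80, 7.51 and 7.52 in low CO2, against 7.24, 7.36 and 7.14 in ambient CO2. Replicate 1 lay 0.44 and 0.45 below the ambient mean for KRP1 and KRP2, and the mean of replicates 2 and 3 lay 0.27 and 0.25 above it. CYCA3;1, a cyclin of S phase, differed by -0.24 (SE 0.17).

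The low CO2 arrays differed in whether replication or mitotic genes were the lower group. On low CO2 replicate 1 the S-phase median lay 0.16 below the ambient mean of each gene and the mitotic median 0.51 below it. Replicate 2 had the opposite order, with medians of -0.74 for S phase and -0.26 for mitosis, and so had replicate 3, with -0.78 and -0.45. The S-phase median minus the mitotic median was 0.36, -0.49 and -0.34 on low CO2 replicates 1, 2 and 3, against 0.09, -0.16 and 0.04 on ambient CO2 replicates 1, 2 and 3. The low CO2 arrays thus lay on both sides of all ambient arrays. Low CO2 replicate 1 was the highest low CO2 array for 10 of 11 S-phase genes, against 47.9% of all probe sets and 69.1% of those with a lower mean in low CO2. It was the lowest for 7 of 9 mitotic genes, against 38.9% and 17.1%. The S-phase minus mitotic difference between the groups was -0.23 with all arrays, -0.39 without low CO2 replicate 1 and -0.01 without low CO2 replicate 3. The ambient arrays were not alike either. Ambient CO2 replicate 1 was the lowest ambient array for 28 of 34 members, 82.4%, against 38.5% of all probe sets. By group these were 10 of 11 S-phase genes, all 9 mitotic genes and 9 of 14 regulators.

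**Figure D3:**
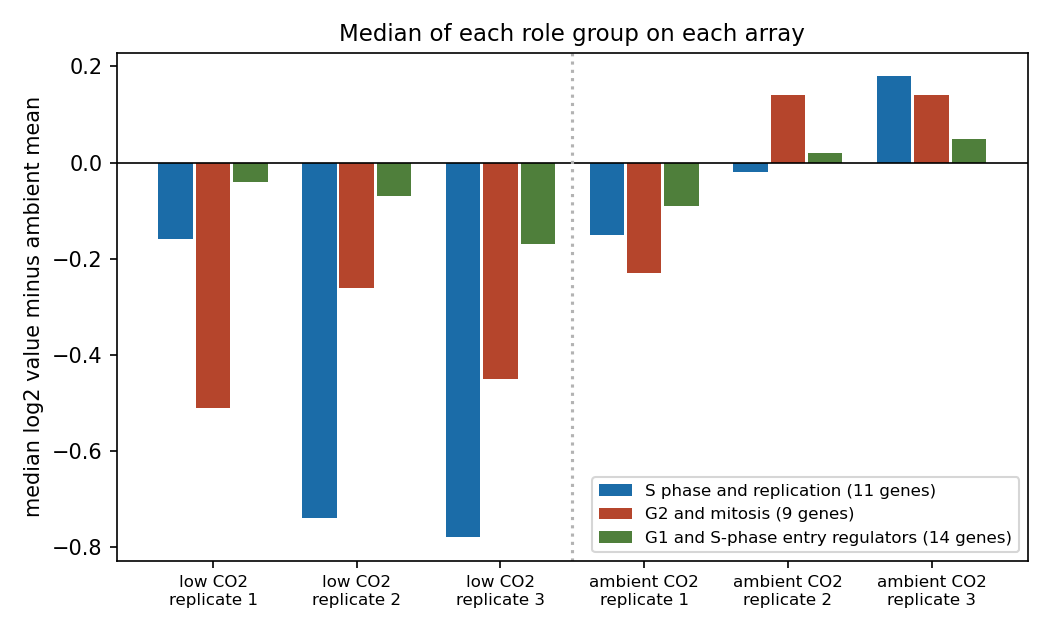
Median, over the genes of each role group, of the log2 value minus that gene's ambient mean, on each low CO2 and ambient CO2 array. The S-phase bar is shorter than the mitotic bar on low CO2 replicate 1 and longer on replicates 2 and 3.

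**Figure D4:**
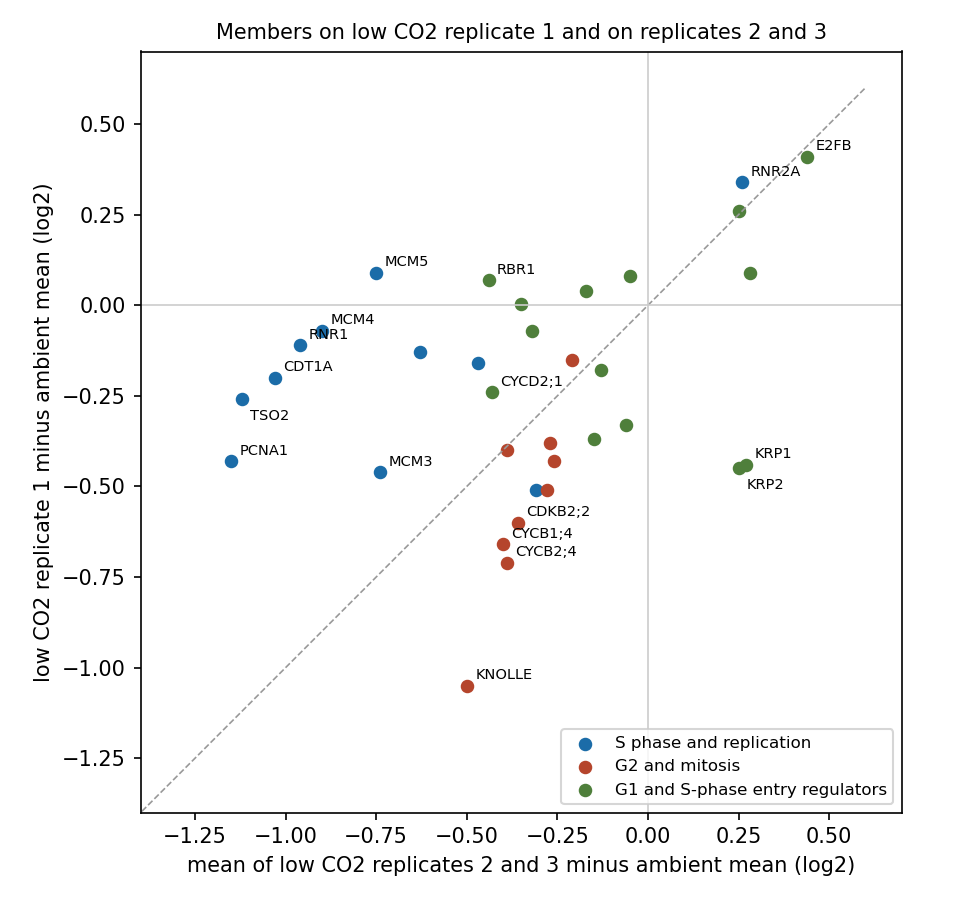
Each tested member on low CO2 replicate 1 (vertical axis) and averaged over replicates 2 and 3 (horizontal axis), as log2 difference from the ambient mean; the dashed line marks equality. Nearly all S-phase genes lie above the line and nearly all mitotic genes below it, with PCNA2 and CYCB2;1 among the exceptions.

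Other genes of the same pathway, in 5 lists of 144 loci of which 112 were tested, gave 0 limma calls with all arrays, and the genes named here had adjusted p of 0.0973 to 0.159. Of 39 further replication genes 36 had lower means in low CO2, against 53.8% of all probe sets, with a median of -0.36. At an unadjusted limma p under 0.05, 20 of them were lower and 0 higher, against 12.6% and 13.5% of all probe sets. Without low CO2 replicate 1, limma called 19 lower and 2 higher, against 18.5% and 16.8%. ORC6, of the origin recognition complex, read 5.03, 4.91 and 4.76 in low CO2, against 5.47, 5.53 and 5.75 in ambient CO2, with no overlap (difference -0.68, SE 0.13). The DNA polymerase alpha gene POLA4 differed by -0.68 (SE 0.14) and EMB2813 by -0.61 (SE 0.14). Low CO2 replicate 1 had a list median of -0.17, replicate 2 one of -0.41 and replicate 3 one of -0.36. Replicate 1 was the highest low CO2 array for 29 of 39 genes, 74.4%, against 47.9% of all probe sets. That is near the 69.1% of probe sets with a lower mean in low CO2.

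Of 36 further genes of G2, mitosis and cytokinesis, 35 had lower means in low CO2, against 53.8% of all probe sets. Their median was -0.26, against -0.03. At an unadjusted limma p under 0.05, 11 were lower and 0 higher, against 12.6% and 13.5% of all probe sets. Without low CO2 replicate 1, limma called 10 lower and 0 higher, against 18.5% and 16.8%. PANS1, a protector of sister chromatid cohesion, read 5.45, 5.75 and 5.57 in low CO2, against 6.31, 6.35 and 6.27 in ambient CO2. Its groups lay far apart (difference -0.72, SE 0.12, limma adjusted p = 0.0973). The cytokinesis kinesin gene HIK differed by -0.91 (SE 0.20). AT4G14330 read 3.76, 3.72 and 3.96 in low CO2, all under log2 4, against 4.26, 4.34 and 4.40 in ambient CO2, and was tested only because of its ambient values, so its difference has no exact size. The median of this list did not show the array split of the mitotic members. It was -0.27 on low CO2 replicate 1, -0.28 on replicate 2 and -0.29 on replicate 3. Replicate 1 was the lowest low CO2 array for 13 of 36 genes, 36.1%. That share was 38.9% of all probe sets and 17.1% of those with a lower mean in low CO2. Replicate 1 was the highest for 14, 38.9%, against 47.9% and 69.1%. Beside probe sets with a lower mean, it was thus lowest more often, as in the mitotic members but by less.

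Histone genes of H3.1 and H4, made in S phase, had lower means for 6 of 7 tested (median -0.34), against 53.8% of all probe sets. At an unadjusted limma p under 0.05, 3 were lower and 0 higher, against 12.6% and 13.5% of all probe sets. With low CO2 replicate 1 left out limma called 3 lower and 1 higher, against 18.5% and 16.8%. The H3.1 genes AT5G65360, AT5G10390 and AT1G09200 differed by -0.47, -0.64 and -0.40. Whether near-identical histone copies share probes was not tested. Of 13 further cyclins, kinases and transcription factors 10 had lower means (median -0.27), against 53.8% of all probe sets. At an unadjusted limma p under 0.05, 4 were lower and 0 higher, against 12.6% and 13.5%. Without low CO2 replicate 1, limma called 7 of the 13 lower and 0 higher, against 18.5% and 16.8%. CYCA3;2 differed by -0.57 (SE 0.12), the CDK-activating kinase gene CDKD1;3 by -0.43 (SE 0.12) and CYCD5;1 by -0.38 (SE 0.11). Of 17 inhibitors and endocycle genes 8 had lower and 9 higher means (median 0.02), against 53.8% of all probe sets with a lower mean. Among them 0 were lower and 3 higher at an unadjusted limma p under 0.05, against 12.6% and 13.5% of all probe sets. Without low CO2 replicate 1 limma called 1 lower and 2 higher, against 18.5% and 16.8%. These shares are near or under those of all probe sets. DEL2, an atypical E2F gene, read 4.66, 4.70 and 5.34 in low CO2, against 3.87, 3.88 and 4.03 in ambient CO2. Of its ambient values 2 lay under log2 4 and it was tested only because of its low CO2 values, so its difference has no exact size. The inhibitor gene KRP4 differed by 0.51 (SE 0.18) and AT1G10690 by 0.40 (SE 0.12), and all 3 were above the ambient range on each low CO2 array.

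**Figure D5:**
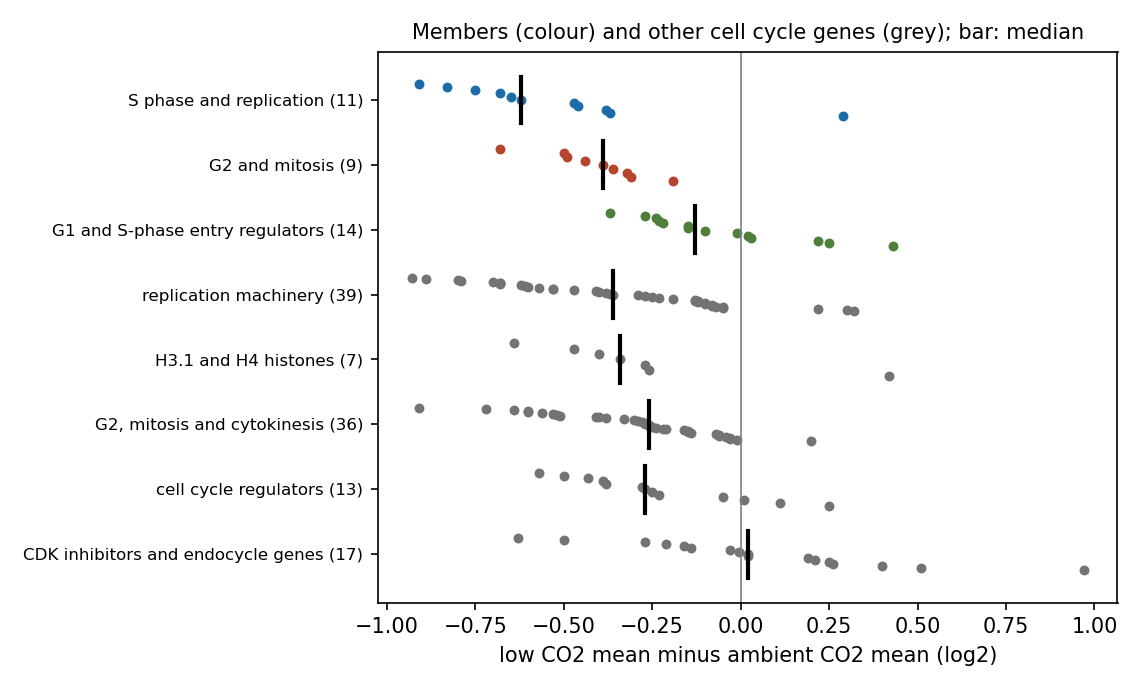
Low CO2 mean minus ambient CO2 mean (log2) of each tested member (colour) and each tested gene of the other cell cycle lists (grey), with the number of genes in brackets and black bars at the medians. Most points of the replication and mitosis lists lie below 0, and the inhibitor and endocycle genes spread around 0.

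Marker levels were summed beside these results. The 3 mature leaf markers were higher on all low CO2 arrays, with sums of log2 15.02 to 15.09 in low CO2 and 14.73 to 14.82 in ambient CO2. Differences were 0.08 for CA1 (limma adjusted p = 0.622), 0.33 for CAT2 and 0.48 for GLDP1. CAT2 and GLDP1 are photorespiration genes, and whether they track leaf content between these CO2 levels was not tested. Summed levels of 9 stomatal lineage markers were log2 8.55 to 8.83 in low CO2 and 8.83 to 8.96 in ambient CO2. FAMA was the highest of them, and the 9 did not move together, with 6 lower and 3 higher means in low CO2. SDD1, SPCH and FAMA differed by -0.79, -0.42 and -0.38, against 0.47 for TMM and 0.19 for MUTE. Of 8 shoot meristem markers, WUS, CLV3, CUC1 and CUC3 lay under log2 4 on all arrays. The meristem sums were log2 8.70 to 9.09 in low CO2 and 9.15 to 9.57 in ambient CO2, and most of each sum was CLV1, the highest of them, which differed by -0.69. The other tested meristem markers did not go with CLV1, with differences of 0.01 for STM, 0.24 for KNAT1 and -0.09 for CUC2. For 6 markers of young leaf growth the sums were 7.97 to 8.14 in low CO2 and 7.96 to 8.23 in ambient CO2. Of the 5 tested, ANT differed by -0.60 and the other 4 had higher means, up to 0.45 for GRF3. For 3 root markers they were 5.83 to 6.03 in low CO2 and 6.01 to 6.15 in ambient CO2. The part of these cell types in the differences above was not tested.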

How the data were processed

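Per the submitters' processing notes the deposited log2 values come from GCRMA. They were measured on Affymetrix arrays with cRNA from 5 µg RNA, per the labels' protocols. The log base was read from the values (2.62 to 14.20). GCRMA corrects background by probe sequence and normalizes between arrays. For the probe grouping, the software version and the build, no statement was found in the sources used here. Of 21430 loci, 21231 were found in a RefSeq gene table (TAIR10.1), used for names only; 1 listed locus with a contradicting name was dropped. No sequence is printed.

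Samples were grouped by label. The fit took probe sets with log2 4 or more on 3 or more arrays and was run in limma 3.58.1 (R 4.3.3; lmFit, eBayes, 2-sided, Benjamini-Hochberg over all 16210). Role groups are given as medians with no test. Values on every array are given for members with unadjusted p under 0.05, no overlap, or a call without low CO2 replicate 1, and for PCNA1, CDKA;1, RBR1 and KNOLLE; from each other list, the 3 genes with the smallest p are named. The members and lists were chosen with earlier results of these data known. Alternatives were another floor, no filter, trend and robust eBayes, quantile normalization, median centring, the replicate block, array weights and each array left out. Counts without overlap and at unadjusted p without low CO2 replicate 1, and weights estimated gene by gene, were added after seeing the data. A simulation of 16210 probe sets took its spread from these arrays. In it limma called changes of log2 1, 2, 3 and 4 in 58%, 86%, 98% and 96% of cases. It gave 9 false calls. On all 6 measured arrays limma called 0 of 16210 probe sets, although differences ran from -2.59 to 6.65. The simulated rates are thus no guide to what the test could find here. The 0 calls do not show that nothing changed. The number of arrays limits the precision. Figures used matplotlib 3.10.9 in Python 3.11.15.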

Additional observations from a re-analysis of the deposited data

How the results depend on the processing

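The counts of members called, 0 lower and 0 higher by limma, were also 0 without a filter, with a floor of log2 5, with trend and robust eBayes, after quantile normalization, after centring arrays on their medians and with the replicate block. With array weights, which gave low CO2 replicate 1 a weight of 0.183 and replicate 2 one of 4.165, 21 members were lower and 3 higher, among 4353 and 3899 of all probe sets. Over the 6 omissions of 1 array the counts ran from 0 to 11 lower and from 0 to 1 higher, and 11 and 1 came without low CO2 replicate 1, the other 5 giving 0. Members below all ambient arrays numbered 19 without low CO2 replicate 1 instead of 12, and members above them 5 instead of 3. The S-phase, mitotic and regulator medians kept their sign in each setting run, from -0.77 to -0.41, from -0.49 to -0.33 and from -0.16 to -0.05. The S-phase median of -0.41 came without low CO2 replicate 3. Of 22 members named by rule, CDKA;1 alone changed sign, to 0.04 without low CO2 replicate 2 and 0.01 without ambient CO2 replicate 1. The replicate numbers do not pair the samples by the labels, deviations of same-numbered arrays correlated at -0.19, 0.02 and -0.20, and 0 of 3 low CO2 arrays correlated best with their own number. With the replicate block 0 members were called. The medians were -0.62, -0.39 and -0.13, which the block could not change, because each replicate number holds 1 array of each group. Signal limits CYCA2;1, which was under log2 4 on all arrays and not tested.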
